A study of Saccharomyces cerevisiae with 18 samples.

Results

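Transcript levels of 7 cyclin genes of G1 and S phase in the budding yeast Saccharomyces cerevisiae are described here: CLN1, CLN2, CLN3, PCL1, PCL2, CLB5 and CLB6. They were taken by name, as G1, Pho85-type and S-phase cyclins that act upstream of the transcription factors SBF and MBF or are known as their outputs, and all 7 were measured, by 1 probe set each, among the 5449 yeast genes on the arrays. The cells came in 3 genotypes: a mutant whose Swi6 protein carries the C404A change, a cysteine replaced by alanine, a swi6 deletant, and SWI6 wild type. Each genotype was measured after 45 min in 30 µM linoleic acid hydroperoxide (LoaOOH), a lipid hydroperoxide used to impose oxidative stress, and as a control without treatment. That gives 6 groups of 3 arrays, all from cells grown at 30 °C in synthetic medium lacking leucine. The series asks whether this cysteine takes part in the redox control of the cell cycle through Swi6. The labels do not say how the alleles were introduced, whether a strain is a single clone, or whether replicates were separate cultures, so p-values measure the spread between these samples, which may be technical.

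Cyclins bind and activate cyclin-dependent kinases, and their timed appearance drives the yeast cell cycle forward. In G1, Cln3 with the kinase Cdc28 relieves repression by Whi5 of SBF, a complex of the DNA-binding protein Swi4 with Swi6. SBF and MBF, a complex of Mbp1 with Swi6, then switch on a large set of genes at the G1/S transition. Among them are CLN1 and CLN2, which commit the cell to division, PCL1 and PCL2, whose products work with the kinase Pho85, and CLB5 and CLB6, whose products start DNA replication.

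In the R64 assembly CLN3 (YAL040C) lies on chromosome I at 65778 to 67520, PCL2 (YDL127W) on IV at 234927 to 235853, CLB6 (YGR109C) on VII at 705359 to 706501 and CLN1 (YMR199W) on XIII at 662644 to 664284. PCL1 (YNL289W) lies on XIV at 87897 to 88736, CLN2 (YPL256C) on XVI at 64977 to 66614 and CLB5 (YPR120C) on XVI at 773875 to 775182. None lies on chromosome V, whose 259 measured genes had raised signal in both mutants: their median difference from wild type in control cells was 0.70 for C404A and 0.76 for the deletant on the log2 scale, against -0.04 and -0.02 for the genes elsewhere. SWI6 signal lay below the background of 4.574 in all 6 deletant arrays and was at least 55.9-fold lower in deletant than in wild type control cells (limma, adjusted p = 2.49e-11), the background standing in for the deletant's level. STE2, a receptor gene of a cells, had group means of 13.55 to 13.8, and STE3, its counterpart in alpha cells, 7.85 to 8.093. Values below are log2 probe set signals. Each difference is the estimate ± SE of 1 limma fit to all 18 arrays, and a gene was called at a Benjamini-Hochberg adjusted p under 0.05 over all 5449 genes. Levels of different genes are not set against each other, since probe sets differ in brightness. Comparisons between genotypes share arrays with one another and are not independent.

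**Figure D1:**
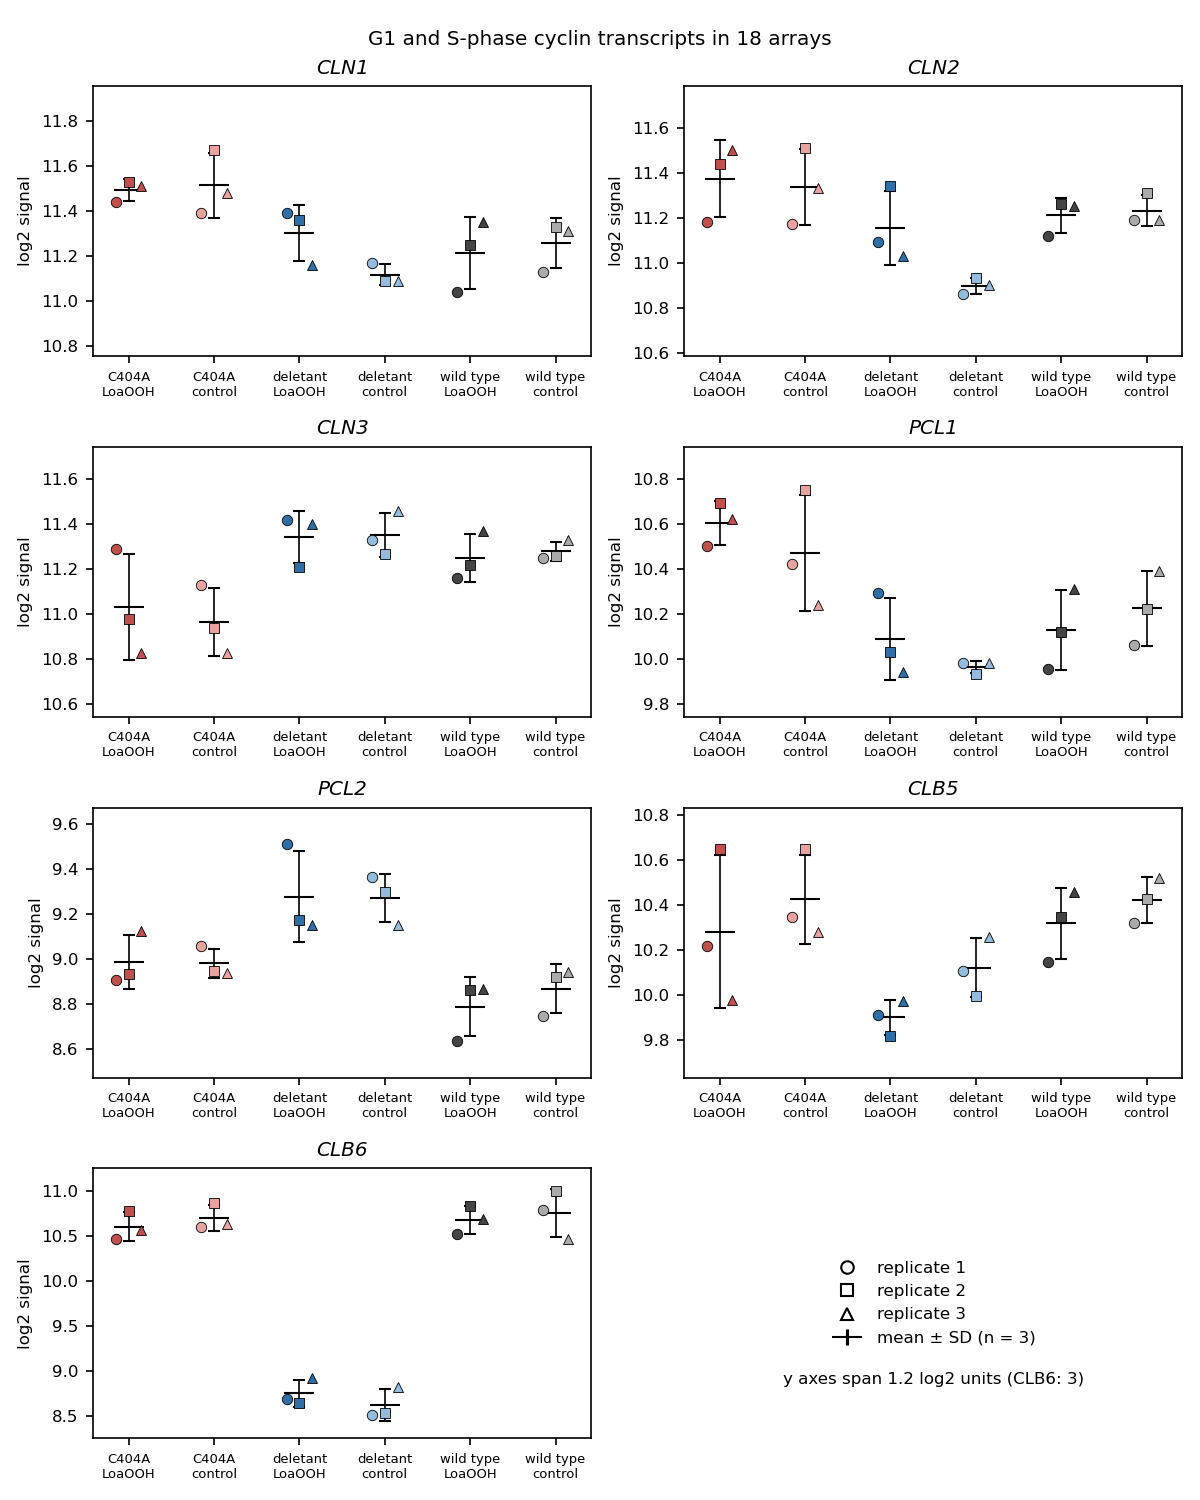
Log2 signal (y axis) of the 7 cyclin genes in the 6 groups (x axis), 1 panel per gene, with 1 point per array, the shape giving the replicate number, and bars showing the mean ± SD of 3 arrays. CLB6 has its 6 deletant arrays between 8.508 and 8.926 and the 12 other arrays between 10.47 and 11, while the group means of the other genes span only 0.387 to 0.637.

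CLB6 differed most with genotype among the 7 cyclin genes. It encodes a B-type cyclin that helps to fire replication origins. In C404A cells its signal was 10.47, 10.78 and 10.57 after LoaOOH and 10.6, 10.87 and 10.63 in control cells. Deletant cells had 8.689, 8.649 and 8.926 after LoaOOH and 8.508, 8.536 and 8.829 in control cells. In wild type it was 10.52, 10.83 and 10.69 after LoaOOH and 10.79, 11 and 10.47 in control cells. Every deletant array lay below every array of the other genotypes, with a gap of 1.54 between them, and the deletant arrays were still well above background. In RNA of whole cultures, fewer cells in the phase that makes a transcript and less of it per cell cannot be told apart. In control cells CLB6 fell by 2.13 ± 0.139 on the log2 scale in the deletant against wild type, which amounts to 4.37-fold (adjusted p = 1.17e-07), and ranked 9 of 5449 genes by p-value. After LoaOOH it was 3.8-fold lower in the deletant than in wild type (-1.93 ± 0.139, adjusted p = 2.37e-07). The C404A mutant stood above the deletant by 4.22-fold without treatment (adjusted p = 2.95e-07) and 3.61-fold with LoaOOH (adjusted p = 1.01e-06). Between C404A and wild type cells the CLB6 difference was -0.05 ± 0.139 in control cells (95% interval -0.35 to 0.25, adjusted p = 0.849) and -0.07 ± 0.139 after LoaOOH (-0.37 to 0.22, adjusted p = 0.802). In the 6 JC arrays, which are replicate 3 of each group, the deletant stood -1.64 from wild type without treatment and -1.77 with LoaOOH, and in the 12 CT arrays (replicates 1 and 2) it stood -2.37 (adjusted p = 0.000104) and -2.01 (adjusted p = 0.000149).

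CLB5, whose product also fires replication origins, was not called in any comparison. Its signal was 10.22, 10.65 and 9.98 in C404A cells after LoaOOH and 10.35, 10.65 and 10.28 in C404A control cells. The deletant had 9.913, 9.819 and 9.974 after LoaOOH and 10.11, 9.999 and 10.26 in control cells. Wild type had 10.15, 10.35 and 10.46 after LoaOOH and 10.32, 10.43 and 10.52 in control cells. All 3 deletant arrays lay below all 3 wild type arrays in either condition, and the C404A arrays overlapped those of wild type in either condition and lay above all deletant arrays of the same condition. The difference of the deletant from wild type was -0.30 ± 0.144 in control cells (95% interval -0.61 to 0.00, adjusted p = 0.232) and -0.42 ± 0.144 after LoaOOH (-0.72 to -0.11, adjusted p = 0.0836). After LoaOOH that value passed the threshold with quantile normalization (adjusted p = 0.0496) and with only the groups compared in the fit (adjusted p = 0.04). The intervals of CLB5 and CLB6 for the deletant against wild type did not overlap in either condition, but the difference between these genes was not tested. The CLB5 difference of C404A from wild type cells was 0.00 ± 0.144 without treatment (-0.30 to 0.31) and -0.04 ± 0.144 with LoaOOH (-0.34 to 0.27). Over wild type the C404A value was -0.24 without treatment and -0.48 with LoaOOH in the JC arrays, opposite in sign to 0.12 and 0.19 in the CT arrays. Over the deletant it was 0.02 and 0.01 in the JC arrays, beside 0.45 and 0.57 in the CT arrays, so the lack of overlap with the deletant rests on a very small gap in replicate 3.

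CLN2 and CLN1, the G1 cyclin genes that act at the commitment point called Start, were lowest in untreated deletant cells and highest in the C404A mutant. CLN2 had 11.18, 11.44 and 11.5 in C404A cells after LoaOOH and 11.17, 11.51 and 11.33 in C404A control cells. The deletant had 11.09, 11.34 and 11.03 after LoaOOH and 10.86, 10.93 and 10.9 in control cells. Wild type had 11.12, 11.26 and 11.25 after LoaOOH and 11.19, 11.31 and 11.19 in control cells. The deletant control arrays stood below the arrays of all other groups, and the other groups overlapped each other. CLN2 was lower in deletant than in wild type control cells by 1.26-fold (-0.33 ± 0.101, adjusted p = 0.0488), close to the threshold, and it lost its call without any single one of the 6 arrays compared (adjusted p from 0.0806 to 0.161). The call was also lost without chromosome V genes (adjusted p = 0.0761) and with arrays centred on the median outside chromosome V (0.0686). The CLN2 difference was -0.29 in the JC arrays and -0.36 in the CT arrays (adjusted p = 0.188). After LoaOOH it differed by -0.06 ± 0.101 between deletant and wild type (95% interval -0.27 to 0.16, adjusted p = 0.812). The C404A mutant had a higher CLN2 level than the deletant in control cells (0.44 ± 0.101, 1.36-fold, adjusted p = 0.0357), and after LoaOOH the difference was 0.22 ± 0.101 (adjusted p = 0.373). For C404A over wild type CLN2 differed by 0.11 ± 0.101 in control cells (-0.11 to 0.33) and 0.16 ± 0.101 after LoaOOH (-0.05 to 0.38).

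CLN1 had 11.44, 11.53 and 11.51 in C404A cells after LoaOOH and 11.39, 11.67 and 11.48 in C404A control cells. The deletant had 11.39, 11.36 and 11.16 after LoaOOH and 11.17, 11.09 and 11.09 in control cells, and wild type had 11.04, 11.25 and 11.35 after LoaOOH and 11.13, 11.33 and 11.31 in control cells. Every C404A array lay above every wild type array. The call was reached against the deletant in control cells, where CLN1 was higher in the C404A mutant by 1.31-fold (0.39 ± 0.092, adjusted p = 0.041). Over wild type, the C404A value was 0.25 ± 0.092 in untreated cells (95% interval 0.06 to 0.45, adjusted p = 0.107) and 0.28 ± 0.092 after LoaOOH (0.08 to 0.47, adjusted p = 0.0861). Deletant and wild type differed by -0.14 ± 0.092 in control cells (-0.34 to 0.05) and by 0.09 ± 0.092 after LoaOOH (-0.11 to 0.28), neither called. Both calls of the C404A mutant over the deletant, CLN1 and CLN2, held without C404A control replicate 1 and were lost without any other single array of these groups (adjusted p for CLN1 up to 0.174 and for CLN2 up to 0.147). In the JC arrays the differences of the C404A mutant from the deletant in control cells were 0.39 for CLN1 and 0.43 for CLN2, and in the CT arrays 0.40 (adjusted p = 0.421) and 0.45 (adjusted p = 0.526).

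CLN3, the G1 cyclin gene upstream of SBF, had its lowest levels in the C404A mutant, without a call in any comparison. Its signal was 11.29, 10.98 and 10.83 in C404A cells after LoaOOH and 11.13, 10.94 and 10.83 in C404A control cells. In the deletant it was 11.42, 11.21 and 11.4 after LoaOOH and 11.33, 11.27 and 11.46 in control cells, and in wild type 11.16, 11.22 and 11.37 after LoaOOH and 11.25, 11.26 and 11.33 in control cells. The control arrays of the C404A mutant lay below those of both other genotypes, whereas C404A replicate 1 fell within their range after LoaOOH. For C404A over wild type CLN3 differed by -0.31 ± 0.109 in control cells (95% interval -0.55 to -0.08, adjusted p = 0.0953) and -0.22 ± 0.109 after LoaOOH (-0.45 to 0.01, adjusted p = 0.25). For C404A over the deletant the values were -0.39 ± 0.109 without treatment (adjusted p = 0.104) and -0.31 ± 0.109 with LoaOOH (adjusted p = 0.234). Without C404A LoaOOH replicate 1, CLN3 was called lower after LoaOOH against both wild type (-0.35, adjusted p = 0.0453) and the deletant (-0.44, adjusted p = 0.0433), whereas without C404A LoaOOH replicate 3 it stood at -0.12 (adjusted p = 0.642) and -0.21 (adjusted p = 0.595). The C404A value over wild type was -0.50 in the JC arrays and -0.22 in the CT arrays without treatment (adjusted p = 0.348), and -0.55 and -0.06 with LoaOOH (adjusted p = 0.836 in the CT arrays). The deletant and wild type differed by 0.07 ± 0.109 in control cells (-0.16 to 0.31) and 0.10 ± 0.109 after LoaOOH (-0.14 to 0.33).

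PCL2, a Pho85 cyclin gene of G1, was higher in the deletant than in wild type. C404A cells had 8.908, 8.933 and 9.126 after LoaOOH and 9.058, 8.948 and 8.94 in control cells. The deletant had 9.511, 9.173 and 9.151 after LoaOOH and 9.366, 9.3 and 9.155 in control cells, and wild type had 8.639, 8.863 and 8.867 after LoaOOH and 8.747, 8.922 and 8.943 in control cells. Each deletant array lay above each array of the other genotypes. PCL2 rose in the deletant over wild type by 0.40 ± 0.102 without treatment (1.32-fold, adjusted p = 0.019) and 0.49 ± 0.102 with LoaOOH (1.4-fold, adjusted p = 0.00493). The control call was lost without deletant replicate 1 (adjusted p = 0.0765), deletant replicate 2 (0.0654) or wild type replicate 1 (0.104), and the call after LoaOOH was kept without each single array but had an adjusted p of 0.0523 with only the groups compared in the fit. In the JC arrays the PCL2 difference of deletant from wild type was 0.21 without treatment and 0.28 with LoaOOH, and in the CT arrays 0.50 (adjusted p = 0.0496) and 0.59 (adjusted p = 0.0229). C404A cells differed from the deletant by -0.29 ± 0.102 in both conditions (adjusted p = 0.206 in control cells and 0.242 after LoaOOH), and from wild type by 0.11 ± 0.102 in control cells and 0.20 ± 0.102 after LoaOOH, none called.

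PCL1, the other Pho85 cyclin gene of G1, was highest in the C404A mutant and lowest in untreated deletant cells. It had 10.5, 10.69 and 10.62 in C404A cells after LoaOOH and 10.42, 10.75 and 10.24 in C404A control cells. The deletant had 10.29, 10.03 and 9.941 after LoaOOH and 9.979, 9.934 and 9.979 in control cells, and wild type had 9.953, 10.12 and 10.31 after LoaOOH and 10.06, 10.22 and 10.39 in control cells. All C404A arrays after LoaOOH lay above the treated arrays of the other genotypes. PCL1 was higher in the C404A mutant than in wild type after LoaOOH (0.47 ± 0.13, 1.39-fold, adjusted p = 0.0384). With the replicate number as a block that adjusted p was 0.0541, and the call was lost without any single one of the arrays compared except C404A replicate 1 and wild type replicate 3 (adjusted p up to 0.161). It was 0.30 in the JC arrays and 0.56 in the CT arrays (adjusted p = 0.0609). The PCL1 difference of C404A over wild type in untreated cells was 0.24 ± 0.13 (95% interval -0.03 to 0.52, adjusted p = 0.26), with -0.15 in the JC arrays and 0.44 in the CT arrays. Against the deletant it was 0.50 ± 0.13 without treatment (adjusted p = 0.0708) and 0.51 ± 0.13 with LoaOOH (adjusted p = 0.068), just short of a call. PCL1 in the untreated deletant stood -0.26 ± 0.13 from wild type (-0.54 to 0.02, adjusted p = 0.264), not called and opposite in sign to PCL2. The intervals of PCL1 and PCL2 did not overlap there, but the difference between these genes was not tested. After LoaOOH PCL1 in the deletant stood -0.04 ± 0.13 from wild type (-0.32 to 0.23, adjusted p = 0.902), with -0.37 in the JC arrays and 0.12 in the CT arrays.

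PHO85 itself, the kinase gene whose product Pcl1 and Pcl2 bind, had more signal in either mutant than in wild type. It lies on chromosome XVI. The C404A mutant had 11.85, 11.7 and 11.87 after LoaOOH and 11.79, 11.75 and 11.81 in control cells. The deletant had 11.99, 11.87 and 11.9 after LoaOOH and 11.77, 11.81 and 11.77 in control cells. Wild type had 11.49, 11.55 and 11.5 after LoaOOH and 11.4, 11.45 and 11.35 in control cells, so that every mutant array lay above every wild type array. PHO85 rose by 0.39 ± 0.0549 in C404A control cells (adjusted p = 0.000195) and by 0.38 ± 0.0549 in deletant control cells (adjusted p = 0.000168) over wild type. After LoaOOH the differences were 0.30 ± 0.0549 for C404A (adjusted p = 0.00235) and 0.41 ± 0.0549 for the deletant (adjusted p = 8.08e-05). The C404A call after LoaOOH was lost with only the groups compared in the fit (adjusted p = 0.121) and in the CT arrays alone (0.26, adjusted p = 0.0881).

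**Figure D2:**
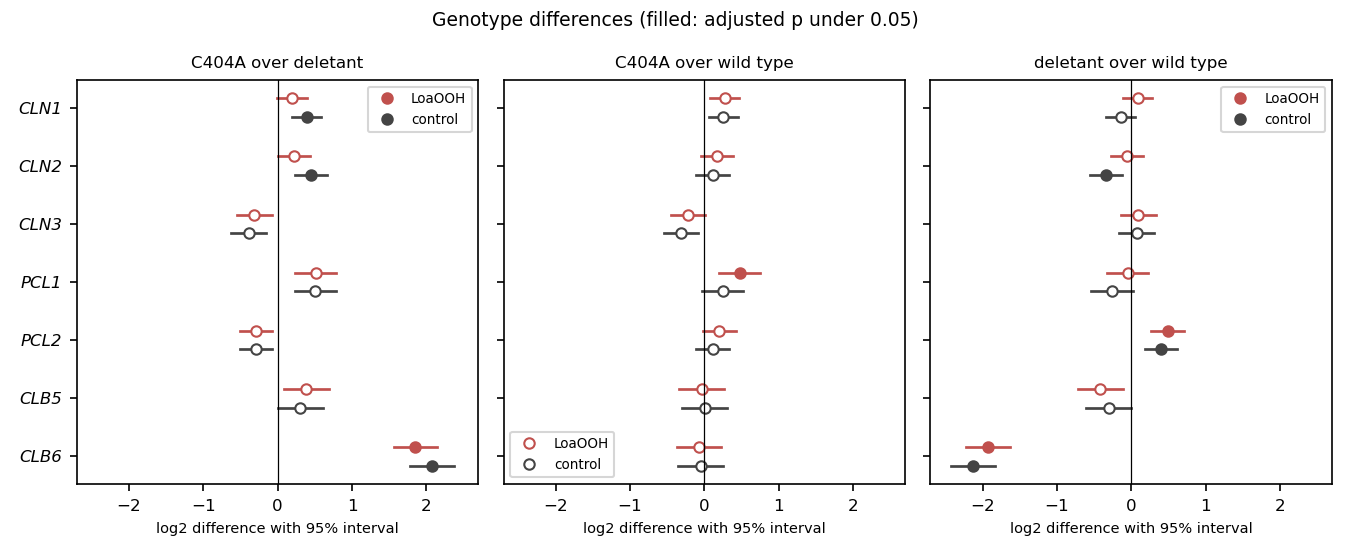
Log2 difference with its 95% interval (x axis) for each of the 7 cyclin genes (y axis) in the 3 genotype comparisons, after LoaOOH (red) and in control cells (grey), with filled points for adjusted p under 0.05. CLB6 stands at 1.85 and 2.08 for the C404A mutant over the deletant and at -1.93 and -2.13 for the deletant over wild type, while the other cyclin genes stay between -0.42 and 0.51.

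Counted by comparison, 0 to 3 of the 7 cyclin genes were called. In deletant over wild type control cells 3 of 7 passed, PCL2 higher and CLB6 and CLN2 lower, beside 10.1% of all genes. After LoaOOH 2 of 7 passed, PCL2 higher and CLB6 lower, beside 10.4%. For the C404A mutant over the deletant 3 passed in control cells, all higher (CLN1, CLN2 and CLB6), beside 1.8% of all genes, and CLB6 passed after LoaOOH, beside 1.45%. For the C404A mutant over wild type 0 of 7 passed in control cells with limma, beside 8.24% of all genes, and PCL1 passed after LoaOOH, beside 7.38%. At an unadjusted p under 0.05 that comparison had 2 of 7 in control cells (CLN1 and CLN3). The deletant over wild type had 3 of 7 at that level in control cells, and the C404A mutant over the deletant 6 of 7. The share of all genes at that level was not counted. Among genes outside chromosome V, where all 7 cyclin genes lie, the shares called against wild type were lower. For the deletant they were 6.49% in control cells and 6.78% after LoaOOH, and for the C404A mutant 4.57% and 3.72%. The 7 cyclin genes had non-overlapping arrays in all 7 cases for the C404A mutant over the deletant in control cells, beside 19.8% of all genes, and in 5 of 7 for the deletant over wild type in control cells, beside 29%. After LoaOOH 3 of 7 did not overlap for the deletant over wild type, beside 32.9%, and 5 of 7 for the C404A mutant over the deletant, beside 18%. Between C404A and wild type 2 of 7 did not overlap in control cells, beside 31.8%, and 3 of 7 after LoaOOH, beside 23.5%. Their median difference was 0.39 for the C404A mutant over the deletant and -0.26 for the deletant over wild type in control cells, beside medians of -0.02 and -0.01 over all genes. After LoaOOH these medians were 0.22 and -0.04, the last with 3 of 7 genes positive and 4 negative.

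LoaOOH changed no cyclin gene past the threshold in any genotype. In wild type cells all 7 cyclin genes had a lower mean after LoaOOH than in control cells, by -0.10 to -0.02, with 95% intervals reaching no further than -0.41 (CLB5) and 0.23 (CLB6). By limma 0 of 7 passed, and 0 had an unadjusted p under 0.05, beside 0.257% of all genes called. In the C404A mutant the differences ran from -0.14 (CLB5) to 0.13 (PCL1), with intervals from -0.45 to 0.41, and 0 of 7 passed, 0 at an unadjusted p under 0.05, beside 0% of all genes. Treated and untreated arrays overlapped for every cyclin gene in these genotypes, while 27.9% of all genes in wild type and 3.56% in the C404A mutant had no overlap. In the deletant 0 of 7 passed, beside 3.56% of all genes, and 1, CLN2, had an unadjusted p under 0.05. There CLN2 differed by 0.26 ± 0.101 (95% interval 0.04 to 0.47, adjusted p = 0.157), its treated arrays all above the untreated ones, and CLN1 by 0.19 ± 0.092 (-0.01 to 0.38, adjusted p = 0.257). CLB5 in the deletant differed by -0.22 ± 0.144 (-0.53 to 0.09, adjusted p = 0.415), again without overlap. These were the 2 of 7 without overlap, beside 29.9% of all genes. CLB6 there differed by 0.13 ± 0.139 (-0.17 to 0.43). Deviations of control and LoaOOH arrays of the same replicate number correlated at 0.502 to 0.856 in wild type. In the C404A mutant they correlated at 0.115, 0.182 and 0.605, weakly in all but replicate 3. Since each correlation lay above 0.1, arrays of wild type and of the C404A mutant were also compared as pairs. In the paired fit no cyclin gene was called either: the largest difference was that of CLB5 in both, at -0.14 ± 0.0626 in the C404A mutant (adjusted p = 0.481) and -0.10 ± 0.0626 in wild type (adjusted p = 0.309). Pairing took the number of genes called in wild type to 1, against 14 without pairs. The numbers of the deletant arrays, correlating at 0.264, 0.25 and 0.0548, were not taken to mark pairs. The paired limma fit was nonetheless 1 model of all 3 genotypes. Its SEs and calls in wild type and C404A cells thus rest on pairing the deletant arrays too. In the deletant that fit gave adjusted p = 0.0545 for CLN2, 0.06 for CLB5 and 0.0732 for CLN1.

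**Figure D3:**
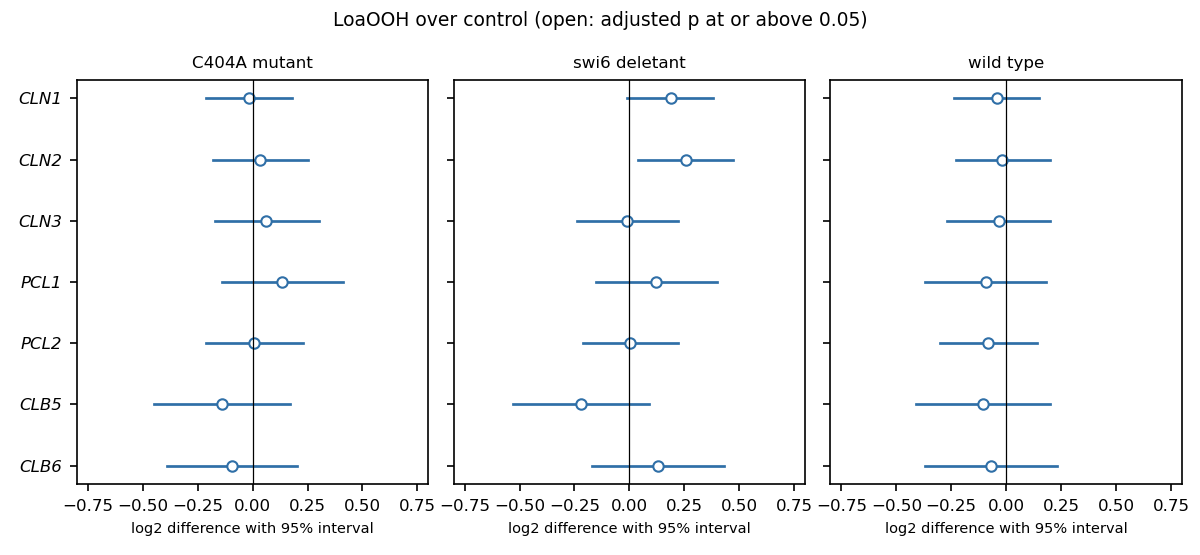
Log2 difference of LoaOOH over control with its 95% interval (x axis) for the 7 cyclin genes (y axis) in C404A, deletant and wild type cells, from fits without pairs. All points are open, since no adjusted p was under 0.05, and the intervals include 0 for every gene except CLN2 in the deletant (0.04 to 0.47).

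The responses did not differ between genotypes past the threshold for any cyclin gene. For the C404A mutant against wild type the difference of responses was largest for PCL1, at 0.23 ± 0.183 (95% interval -0.16 to 0.62). It was 0.02 ± 0.13 for CLN1 (-0.25 to 0.30), 0.05 ± 0.143 for CLN2 (-0.25 to 0.36) and -0.02 ± 0.197 for CLB6 (-0.44 to 0.40). For the deletant against wild type it was 0.28 ± 0.143 for CLN2 (-0.03 to 0.58), 0.23 ± 0.13 for CLN1 (-0.05 to 0.51) and 0.20 ± 0.197 for CLB6 (-0.22 to 0.62). All adjusted p-values were 1, and 0 of 7 genes passed in either, 0 at an unadjusted p under 0.05, beside 0% of all genes in each. The CLN2 difference of deletant from wild type was called in control cells and not after LoaOOH, and the difference between these 2 was not called. Differences of responses above 0.62 in size lie outside the intervals of all 7 genes.

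Ordered by mean level, neighbouring groups among the 6 were mostly close for the single gene. Sorting by the mean itself favours small steps, so these pairs do not show whether groups further apart separate. The same count was not made over all genes. Of 35 neighbouring pairs of groups in the 7 orders, 27 differed by less than their pooled SD and 5 had no overlap between arrays. Those 5 were C404A LoaOOH over deletant LoaOOH for CLB6 (1.85) and for CLN1 (0.189), deletant LoaOOH over deletant control for CLN2 (0.256), deletant control over C404A LoaOOH for PCL2 (0.285) and deletant control over deletant LoaOOH for CLB5 (0.219, its lowest pair). For CLN3 and PCL1 all neighbours overlapped.

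The genes whose signal followed each cyclin gene most closely were searched for the 3 cyclin genes whose group means spanned at least 0.5, among 1239 genes with such a span. CLB6 was most like TOS6, a cell wall protein gene (Pearson r = 0.99 over 18 arrays), SWI6 (0.978) and HO, the mating-type endonuclease gene (0.977). These rest on the split of deletant from other arrays: within the 12 other arrays r was 0.692 for TOS6, -0.63 for SWI6 and 0.573 for HO. CLB5 was most like TOS4, a transcription factor gene of G1/S (r = 0.924), MCD1, a cohesin subunit gene (0.861), and HO (0.808). For TOS4 r was 0.865 within the 12 arrays of C404A and wild type cells and 0.85 within the 6 deletant arrays. PCL1 was most like YOX1, a homeodomain repressor gene (r = 0.922), YAR066W (0.883) and YAR068W (0.854). YOX1 had r = 0.955 within the 12 arrays without the deletant and 0.554 within the deletant, while YAR066W had 0.902 and -0.383 and YAR068W 0.845 and -0.632. Arrays of a group share genotype and treatment, so these values are descriptions only.

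Other genes of cyclin control were counted in the same comparisons, beside 10.1% of all genes called in deletant over wild type control cells and 8.24% in C404A over wild type control cells. Of 12 other cyclins of Cdc28 and Pho85, 1 rose and 0 fell in deletant over wild type control cells (median 0.08, beside -0.01 over all genes). It was PCL6, a gene on chromosome V, at 0.96 ± 0.192 (adjusted p = 0.00355). The mitotic cyclin genes CLB1, CLB2 and CLB3, singled out after their values were seen, differed there by 0.07 (adjusted p = 0.774), 0.11 (0.763) and 0.06 (0.773). CLB4, another mitotic cyclin gene, differed by 0.20 ± 0.0628 (adjusted p = 0.0568), just short of a call. In C404A over wild type control cells 0 of 12 passed with limma (median -0.14). Of 7 kinases, inhibitors and partners PHO85 alone rose in each mutant, and CDC28, the kinase gene of the Cln and Clb cyclins, also singled out afterwards, differed by -0.10 (adjusted p = 0.559) for C404A and 0.08 (adjusted p = 0.709) for the deletant over wild type. None of 8 cyclin turnover genes passed in control cells, and CDC53, a scaffold of ubiquitin ligases, fell in the C404A mutant after LoaOOH (-0.26 ± 0.0691, adjusted p = 0.033), a call kept in 6 of 15 alternatives and without 1 of the 6 single arrays (adjusted p up to 0.203).

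Of 13 subunits and regulators of SBF and MBF, 3 rose and 1 fell in deletant over wild type control cells, beside 10.1% of all genes called. The 1 that fell was SWI6. SWI4 on chromosome V rose by 1.12 ± 0.163 (adjusted p = 0.000184) and MSA2, a G1 co-regulator gene, by 0.58 ± 0.101 (adjusted p = 0.000947). In the C404A mutant SWI4 rose by 0.97 ± 0.163 (adjusted p = 0.000964) and BCK2, also on chromosome V, by 0.48 ± 0.123 (adjusted p = 0.0259). The BCK2 call in the C404A mutant was kept in 8 of 14 alternatives and without 2 of the 6 single arrays (adjusted p up to 0.257). BCK2 also rose in the deletant over wild type, by 0.44 ± 0.123 (adjusted p = 0.0321), and C404A differed from the deletant by 0.04 (adjusted p = 0.893). Of 27 other SBF targets, 3 rose and 9 fell in deletant control cells (median -0.05), among them TOS6 (-5.97) and HO (-2.04), and of 39 other MBF targets 8 rose and 3 fell (median 0.17), among them PLM2 (1.20), IRR1 (0.45) and DUN1 (0.82). For the C404A mutant over the deletant in control cells, beside 1.8% of all genes called, 8 SBF targets were higher and 0 lower (median 0.12). There 0 MBF targets were higher and 12 lower (median -0.26). For the C404A mutant over wild type control cells, beside 8.24%, 1 SBF target was higher and 2 lower (median -0.01). Of the MBF targets 1 was higher and 3 lower there (median -0.15).

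**Figure D4:**
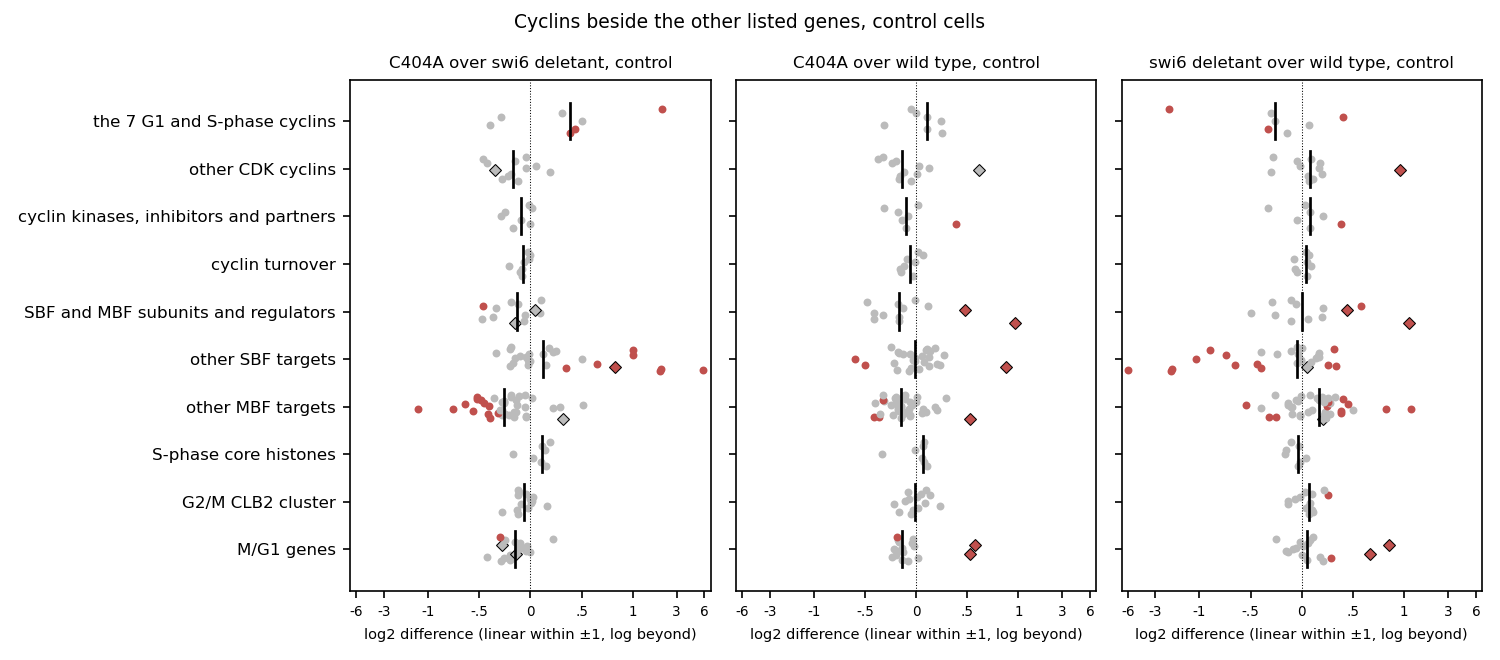
Log2 differences in control cells (x axis, linear within ±1 and logarithmic beyond) of the 7 cyclin genes and 9 lists of other genes (y axis) for C404A over deletant, C404A over wild type and deletant over wild type, with red points for adjusted p under 0.05, diamonds for listed genes on chromosome V and a bar at each median. SWI6 is left out of its list. The 7 cyclin genes have medians of 0.39, 0.11 and -0.26.

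Markers of cell-cycle phase were measured beside the cyclins, since the labels do not mention synchronised cultures. The mean signal of 7 core histone genes, made in S phase, ran from 13.3 to 13.4 in C404A, 13.22 to 13.29 in deletant and 13.3 to 13.37 in wild type control arrays. For 14 genes of the G2/M cluster it ran from 10.71 to 10.87, 10.75 to 10.89 and 10.73 to 10.86 in the same order of groups. For 15 genes of the M/G1 boundary outside chromosome V it ran from 11.32 to 11.42 in C404A, at 11.53 in each deletant array and from 11.44 to 11.55 in wild type control cells. In control cells the histone mean was thus lower in each deletant array than in each wild type array, but narrowly (13.29 against 13.3 where closest). The M/G1 mean was lower in each C404A array, also narrowly (11.42 against 11.44). Of single genes, 29% had no overlap between deletant and wild type control arrays, and 31.8% between C404A and wild type. The same share was not counted for means of lists. The median histone difference in the deletant was -0.04, beside -0.01 over all genes. After LoaOOH the histone mean ran from 13.07 to 13.17 in deletant and from 13.18 to 13.34 in wild type arrays. The M/G1 mean then overlapped, at 11.4 to 11.46 in C404A and 11.37 to 11.59 in wild type arrays. By single gene with limma, 10.1% of all genes were called in deletant and 8.24% in C404A over wild type control cells. Outside chromosome V these shares were 6.49% and 4.57%. Beside them, 0 histone genes passed in either mutant over wild type in control cells. Of 17 M/G1 genes 3 rose in the deletant, MCM3 and DSE1 on chromosome V and ASH1 (0.29, adjusted p = 0.0394), and in the C404A mutant MCM3 and DSE1 rose and PIR1 fell (-0.19, adjusted p = 0.0443). Of 14 G2/M genes HST3 rose in the deletant (0.26, adjusted p = 0.0293) and 0 passed in the C404A mutant. The calls of ASH1 and HST3 were each kept in 4 of 14 alternatives and that of PIR1 in 3 of 15. Whether these small differences have a part in those of the cyclin genes was not tested.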

How the data were processed

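RNA of 18 samples was measured on Affymetrix arrays, and the authors deposited 1 table of values for which the submitters' processing notes name PLIER and Affymetrix Expression Console. The deposited values run from 2.474 to 14.99 and were read as log2 from that range, the scale, versions and normalization being not given in the sources used here. Of 10928 probe sets, 5498 name 1 yeast gene and cover 5449 genes. For the 47 genes with several, the probe set without a suffix letter was taken first, then the brightest. Array medians over these genes ran from 10.56 to 10.64, so values were used as deposited. Background, 4.574, was the 95th percentile over the 1746 probe sets for other organisms. The number of arrays limits the precision.

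The 6 group means were fitted with limma 3.58.1 in R 4.3.3, and 11 comparisons were made, two-sided. On simulated data for the deletant against wild type in control cells, with 5449 genes, 69% of genes changed by 0.5 and 90% of those changed by 1 on the log2 scale were recovered. For the difference of responses between the C404A mutant and wild type, only 37% and 81% were recovered. Each simulation changed 100 genes by each amount, with noise independent between genes and arrays. False calls were 9 for the first comparison and 6 for the second. Real arrays shared deviations, and 0 genes were called in the real difference of responses, so recovery there may be lower. The cyclin genes and the 9 lists were chosen with earlier results of these data known. Named beside the cyclins were up to 3 called genes per list and comparison with the smallest adjusted p, and the 3 genes best correlated with each cyclin whose group means spanned at least 0.5. Deviations of same-numbered control and LoaOOH arrays correlated at 0.856, 0.502 and 0.64 in wild type and at 0.115, 0.182 and 0.605 in the C404A mutant, and the numbers were taken to pair these arrays. In the deletant they correlated at 0.264, 0.25 and 0.0548, and in each comparison between genotypes at least 1 pair lay below 0.1, so there the numbers were not taken as pairs, although number 3 is the JC prefix in every group. The labels do not explain the prefixes CT and JC of the sample descriptions. Promoter and protein sequences were not used here. Alternatives covered the scaling of arrays, the variance model, the filter on dim probe sets, chromosome V genes, the samples fitted, replicate blocks, the CT arrays alone and each array left out.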

Additional observations from a re-analysis of the deposited data

How the results depend on the processing

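Of the 10 calls of a cyclin gene, the 4 of CLB6 held under every alternative run. With 1 sample per group, the JC arrays alone give differences without a test. For the C404A mutant over the deletant in control cells, the count of 3 called cyclin genes became 1 with only the groups compared, with the CT arrays alone and without both C404A arrays of number 2, an alternative chosen after seeing the data. For the C404A mutant over wild type after LoaOOH, the count of 1 became 0 without chromosome V genes, with only the groups compared, with the replicate block, with the CT arrays alone and without both C404A arrays of number 2. Leaving out single arrays gave 1 to 2 called genes for the deletant over wild type in control cells, 1 to 3 for the C404A mutant over the deletant in control cells, 1 to 2 for it after LoaOOH and 0 to 2 for the C404A mutant over wild type after LoaOOH. The replicate block changed no other call of a cyclin gene between genotypes. In the deletant, where the numbers were not taken as pairs, the paired fit called 269 genes in the LoaOOH response, against 194, and gave adjusted p = 0.0545 for CLN2, 0.06 for CLB5 and 0.0732 for CLN1. Over all genes and alternatives, the number called ran from 250 to 563 for the deletant over wild type in control cells and from 255 to 618 after LoaOOH, from 94 to 465 and from 69 to 471 for the C404A mutant over wild type, and from 15 to 100 and from 26 to 89 for the C404A mutant over the deletant. For the LoaOOH response it ran from 0 to 217 in the C404A mutant, 0 to 285 in the deletant and 0 to 317 in wild type. These ranges include the fit without the 259 chromosome V genes, which gave the 69 for C404A over wild type after LoaOOH. Against wild type the main fit called 214 of those genes in control and 215 in LoaOOH cells for the deletant. For the C404A mutant it called 212 and 209 of them.

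Values that changed sign were all small and none was called in either setting. With quantile normalization the LoaOOH response in the deletant became 0.01 for CLN3 and -0.01 for PCL2, and that of PCL2 in the C404A mutant -0.01. Centring on the median outside chromosome V gave 0.01 for CLN3 in the deletant. With the CT arrays alone the deletant differed from wild type after LoaOOH by 0.03 for CLN2 and 0.12 for PCL1, and the C404A mutant from wild type by 0.19 for CLB5. The responses there were 0.02 for CLN3 in the deletant, -0.03 for CLN2 and -0.08 for PCL2 in the C404A mutant, and the differences of responses of C404A from wild type 0.07 for CLB5 and 0.11 for CLB6. Without both C404A arrays of number 2, the CLB5 difference from wild type was -0.11 in untreated C404A cells and the CLN1 response was 0.04. The cause was not tested.

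Leaving out single arrays, the C404A mutant over wild type ran from -0.11 to 0.07 for CLB5 and -0.19 to 0.07 for CLB6 in control cells, and from -0.22 to 0.12 and -0.16 to 0.00 after LoaOOH. The deletant over wild type after LoaOOH ran from -0.15 to 0.00 for CLN2 and -0.14 to 0.05 for PCL1. The response in the C404A mutant ran from -0.08 to 0.06 for CLN1, -0.05 to 0.13 for CLN2, -0.07 to 0.16 for CLN3, -0.06 to 0.05 for PCL2 and -0.33 to 0.01 for CLB5. In the deletant it ran from -0.05 to 0.06 for CLN3 and -0.11 to 0.07 for PCL2, and in wild type from -0.11 to 0.05 for CLN1, -0.04 to 0.03 for CLN2, -0.09 to 0.01 for CLN3 and -0.21 to 0.05 for CLB6. The difference of responses of the C404A mutant from wild type ran from -0.06 to 0.10 for CLN1, -0.03 to 0.15 for CLN2, -0.03 to 0.20 for CLN3, -0.22 to 0.12 for CLB5 and -0.14 to 0.12 for CLB6, and that of the deletant from -0.02 to 0.09 for CLN3 and -0.03 to 0.15 for PCL2. The alternative of another probe set gave no value, since each cyclin gene has 1.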
